A study of Mus musculus with 7 samples.

Results

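The immune cells of the mouse thyroid gland were described from single-cell transcriptomes of dissociated tissue. They were 58 of the 578 tissue cells that had at least 1000 unique molecular identifiers (UMIs, each of which marks 1 captured mRNA molecule), and 58 of 2590 cells deposited in all. A tissue cell was taken as immune when the mean of the deposited natural-log values of Ptprc, Tyrobp, Laptm5 and Fcer1g was at least 0.5 and exceeded the means of 6 endothelial, 5 mural and 3 stromal markers. Its thyroglobulin (Tg) had also to be under 300 per 10000 UMIs. These values chose the cells, so every contrast of immune with other tissue cells below is a description and carries no test.

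Primary thyroid tissue of adult wild-type C57BL/6 mice was profiled in 2 samples, beside 2 samples of early passage and 3 of late passage thyroid follicular cell organoids (TFCOs), which are cultures grown from wild-type C57BL/6 thyroid. No treatment was given to any group. Tissue was digested with collagenase and TrypLE and passed through red blood cell lysis, and DAPI-negative (live) cells were sorted into 384-well plates for SORT-seq, with no sort for an immune marker. Nothing in the sources used here says how many glands each tissue sample held, so the spread between the 2 samples may be technical.

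The tissue samples held 383 and 364 cells with 1406925 and 1589528 UMIs in total, of which 305 and 273 cells reached 1000 UMIs. The immune cells had a median of 6228.5 UMIs (range 1361 to 18847) against 3316 UMIs in the 520 other tissue cells. The plates share 1 set of 384 barcodes, 363 of which occurred in both tissue samples, but only 1 barcode was shared between immune cells of the 2 samples.

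Resident macrophages of an endocrine gland engulf dying cells and debris, digest them in lysosomes and load peptides onto major histocompatibility complex (MHC) class II molecules for inspection by T cells. Complement C1q, which macrophages make, is assembled from 3 chains and tags material for uptake. In the thyroid such cells lie between the follicles, beside the capillaries, together with dendritic cells and lymphocytes.

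The first question was how many cells of the gland were immune and whether any were left in the organoids. In tissue sample 1, 32 of 305 cells passed, a share of 10.5% (exact Clopper-Pearson 95% interval 7.29 to 14.5%). In tissue sample 2, 26 of 273 cells passed, a share of 9.52% (6.32 to 13.6%). The same rule found 0 of 1457 cells in the 5 organoid samples, where a count of 0 allows shares of up to 0.833 to 1.28% per sample. Averaged over both tissue samples this came to 10.0% ± 0.684 (SD, n = 2), 10.0 percentage points above the organoids, and both tissue samples lay above all 5 organoid samples. These shares are made of the values that defined the cells, so they are a description. The highest immune mean of any organoid cell was 0.429, under the cut-off, and intervals and limits here cover counting error only. Fewer immune cells in the gland and a lower recovery of them after digestion cannot be told apart.

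Few cells lay near the cut-off of 0.5. The 5 immune cells just inside it had means of 0.525, 0.530, 0.600, 0.796 and 0.851, and the 5 tissue cells just outside had 0.494, 0.468, 0.466, 0.440 and 0.424, each with a higher mean for another class as well. A further 8 tissue cells reached 0.5 but had a higher mean for another class or too much Tg. A single UMI of 1 rule gene is enough in cells of up to 1565 UMIs, and 2 immune cells were that shallow, 1 of which rested on 1 UMI. The immune cells held 1 to 79 UMIs of the rule genes with a median of 20.0, and 36 of 58 held all 4 genes.

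The 4 genes of the rule split into a pan-leukocyte pair and a pair of signalling adaptors. Laptm5, a lysosomal membrane protein of blood cells, had a median of 15.7 per 10000 in tissue sample 1 (range 0 to 32.5) and 14.3 in tissue sample 2 (1.86 to 43.0), and 57 of 58 immune cells held a UMI of it. Ptprc, the leukocyte phosphatase CD45, had medians of 6.41 (0 to 20.8) and 5.56 (0 to 16.8). Its 51 positive cells left 7 immune cells with no UMI of Ptprc. Tyrobp, which carries the signal of activating myeloid receptors, had medians of 5.63 (0 to 12.9) and 2.29 (0 to 13.3). Fcer1g, the shared signalling chain of Fc receptors, had medians of 4.23 (0 to 24.9) and 5.51 (0 to 20.7). Neither adaptor was found in 10 immune cells. With Ptprc and Laptm5 alone as the rule, 61 tissue cells passed, the same 58 and 3 more, and 4 organoid cells passed too.

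Of the other markers of the set, Cd74, the invariant chain that guides MHC class II through the cell, had medians of 160 (0 to 343) and 162 (0 to 429) per 10000. A UMI of Cd74 was present in 27 of 32 and 21 of 26 immune cells. Lyz2, the lysozyme of macrophages and neutrophils, was uneven, with medians of 1.32 (0 to 44.1) and 0.531 (0 to 99.8). Only 31 of 58 immune cells held a UMI of Lyz2, and its means of 6.84 and 11.8 lay above its medians.

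**Figure D1:**
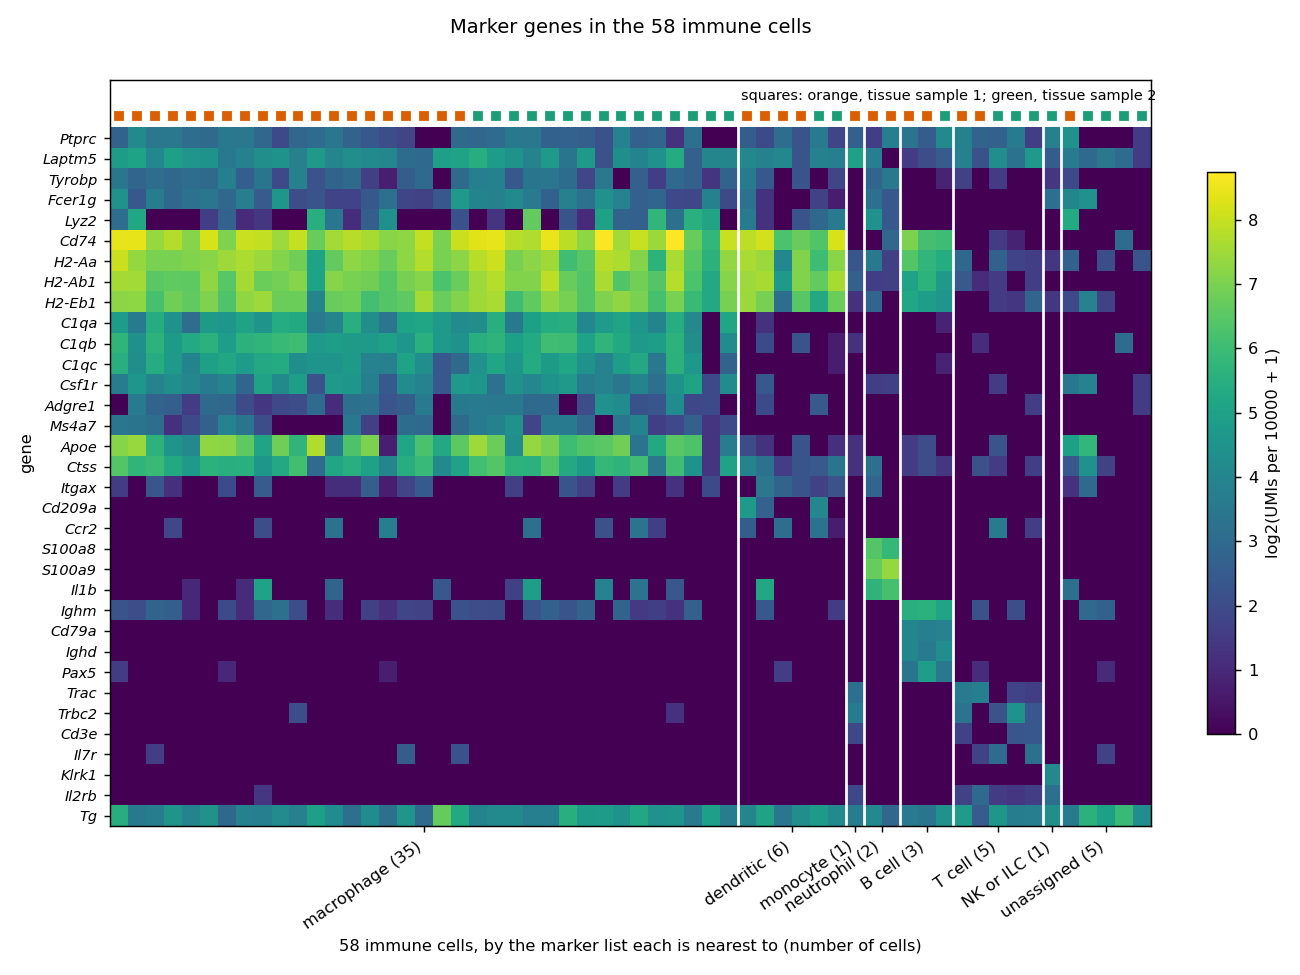
Levels of 34 genes (rows, log2 of UMIs per 10000 plus 1, colour scale at the right) in the 58 immune cells (columns), grouped by the marker list each cell is nearest to, with orange squares for tissue sample 1 and green squares for tissue sample 2. The 35 cells of the macrophage group share C1qa, C1qb, C1qc, Csf1r, Apoe and Ctss with 1 exception that lacks C1q, the 3 cells of the B cell group show Cd79a and Ighd, and the 2 cells of the neutrophil group show S100a8 and S100a9.

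Each immune cell was set beside 9 marker lists and assigned to the one with the highest mean if at least 3 of its genes had a UMI. Macrophage-like cells were the main group, 20 of 32 cells in tissue sample 1 (62.5%, exact Clopper-Pearson 95% interval 43.7 to 78.9%) and 15 of 26 in tissue sample 2 (57.7%, 36.9 to 76.6%). Dendritic-like cells numbered 4 and 2, T cell-like 2 and 3, and B cell-like 2 and 1. In tissue sample 1 alone, 2 cells were neutrophil-like, and in tissue sample 2 alone, 1 was NK- or ILC-like. No cell was nearest to the mast or plasma cell lists. Only 5 of 9 mast and 5 of 7 plasma cell genes were measured, so little is read from this. The remaining cells were 5 unassigned cells and 1 nearest to the monocyte list. That cell went against its list, with 6 UMIs of Trac, 8 of Trbc2 and 2 of Cd3e, which are parts of the T cell receptor complex, and it was left unnamed.

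These groups are ranges of a score. The margin of the best list over the next was under 0.2 in 10 of 58 immune cells, namely 5 unassigned, 3 dendritic-like, 1 macrophage-like and the cell nearest to the monocyte list. For macrophage-like cells the median margin was 1.38 in each sample, while the dendritic-like cells had margins of 0.0407 to 0.453.

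Macrophage-like cells were marked by the C1q genes. In tissue sample 1 all 20 held C1qa, with a median of 24.3 per 10000 (7.77 to 43.9), and in tissue sample 2 14 of 15 did, with a median of 27.6 (0 to 44.4). C1qb, which codes for the B chain, had medians of 30.2 (19.9 to 64.7) and 38.9 (0 to 65.6). C1qc, which codes for the C chain, had medians of 23.4 (4.21 to 44.5) and 24.2 (0 to 48.6). All 3 C1q genes were found in 34 of 35 macrophage-like cells and in 0 of the 23 other immune cells. Those genes are in the macrophage list, so the split is partly made by the list. After each cell was thinned to 1000 UMIs, C1qb was still found in 20 of 20 and 14 of 15 macrophage-like cells, in 0 of 12 and 1 of 11 other immune cells, and in 9 of 123 and 2 of 118 endothelial cells. Over the 35 macrophage-like cells C1qa and C1qb had a Pearson correlation of 0.815 and a Spearman correlation of 0.522, as a description, since the cells share 2 libraries and a scaling to total UMIs.

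The 3 genes lie side by side on the minus strand of mouse chromosome 4 (GRCm38), C1qb at 136880129 to 136886187, C1qc at 136889804 to 136893065 and C1qa at 136895917 to 136898803. The promoter windows of C1qb (chr4:136886151-136886450) and C1qc (chr4:136892865-136893164), 250 bases before to 50 after the start that RefSeq gives, are shown because these neighbours were found in the same cells. They are RefSeq sequences of GRCm38.p6, minus strand, 5′ to 3′, and capitals mark the ETS-family core AGGAAGT, read on the opposite strand. This core is recognised by PU.1, the myeloid factor coded by Spi1, and was chosen after the windows had been read.
C1qb: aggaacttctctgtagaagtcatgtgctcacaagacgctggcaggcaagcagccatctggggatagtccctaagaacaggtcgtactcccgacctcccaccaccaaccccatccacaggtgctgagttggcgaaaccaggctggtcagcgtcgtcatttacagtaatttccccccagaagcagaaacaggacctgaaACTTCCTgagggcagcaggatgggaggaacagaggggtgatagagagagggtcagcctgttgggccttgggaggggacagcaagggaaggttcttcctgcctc
C1qc: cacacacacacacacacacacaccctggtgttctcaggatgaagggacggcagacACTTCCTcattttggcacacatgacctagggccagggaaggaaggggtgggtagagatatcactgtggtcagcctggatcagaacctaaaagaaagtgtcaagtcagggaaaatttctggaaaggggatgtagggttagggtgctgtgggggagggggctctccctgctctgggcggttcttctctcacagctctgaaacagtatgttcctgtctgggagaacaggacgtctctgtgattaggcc
The core began 53 bases before the RefSeq start of C1qb and 195 bases before that of C1qc, and these starts are not the gene ends of GENCODE M21 given above. Searched on both strands, it was found in 9.35% of 32851 mouse promoter windows of this length, and a match is a run of letters, not a shown binding site. Spi1 itself averaged 4.19 and 2.52 per 10000 in the immune cells of the 2 tissue samples, with a UMI in 26 of 32 and 13 of 26, against 0.117 and 0.0802 in other tissue cells.

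Csf1r and Adgre1 are also in the macrophage list, so their presence in these cells is partly made by the list. Csf1r, the receptor for the macrophage growth factor CSF-1, was found in all 35 macrophage-like cells, with medians of 15.0 (3.68 to 31.7) and 15.4 (2.95 to 32.3) per 10000. It was also found in 4 of 12 and 3 of 11 other immune cells of the 2 samples. Adgre1, the surface protein F4/80, was found in 18 of 20 and 13 of 15, with medians of 5.11 (0 to 11.5) and 6.97 (0 to 20.7). Over the macrophage list, 8 of 12 members measured were at least 2-fold higher in immune than in other tissue cells of both samples. The share over all genes tested was 5.71%, and 9 members passed the filter described below. None could be called lower, since the members averaged at most 0.562 per 10000 in other tissue cells (C1qb, tissue sample 1). That is too little for a 2-fold fall with 1 added to each mean. The members of highest mean were C1qb, C1qa, C1qc and Csf1r. Some members of the list had low levels over all immune cells, which include those that were not macrophage-like. Mrc1, a mannose receptor, averaged 1.53 and 1.24 per 10000 against 0.223 and 0.256 in other tissue cells. Cd163, a haemoglobin scavenger receptor, averaged 0.455 and 0.333 against 0.0575 and 0.0304. Pf4, a chemokine of platelets and some macrophages, averaged 0.155 and 0.622 against 0 in both samples.

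Lyz2 and Apoe varied among the macrophage-like cells. Apoe, which carries lipid out of cells, was found in all 35, with medians of 75.5 (0.649 to 206) and 81.7 (1.47 to 174) per 10000. Lyz2 was found in 23 of 35, with medians of 1.39 (0 to 44.1) and 5.44 (0 to 99.8), and the highest cell held 156 UMIs of it. Over these 35 cells Lyz2 had a Pearson correlation of -0.330 with C1qb and 0.407 with Ccr2, the receptor that draws monocytes into tissue. These are descriptions of sparse counts in 2 libraries.

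The 23 other immune cells were fewer and more varied. Apart from Cd74, C1q and Il1b, the genes named for them here are in the lists that assigned them. Their presence is thus partly made by the lists. The 6 dendritic-like cells carried MHC class II like the macrophage-like cells (Cd74 between 75.5 and 295 per 10000) but little C1q, and 5 of 6 had a UMI of Itgax, the integrin CD11c. Itgax was not particular to them. It was found in 25 immune cells in all, among them macrophage-like cells with up to 5 UMIs. A dendritic-like cell held 25 UMIs of Cd209a, a lectin of dendritic cells. The 3 B cell-like cells held 8, 8 and 17 UMIs of Cd79a, a chain of the B cell receptor complex, with 24, 30 and 42 UMIs of Ighm and 45 to 81 UMIs of Cd74. Both neutrophil-like cells held S100a8 (41 and 26 UMIs) and S100a9 (51 and 76 UMIs), the chains of calprotectin, and Il1b (25 and 34 UMIs), which codes for the inflammatory cytokine interleukin-1β. Only these 2 immune cells held any S100a8. The 1 NK- or ILC-like cell held 10 UMIs of Klrk1 and 5 of Il2rb, both receptors of killer lymphocytes. Cd74 was absent or at 1 UMI in all 5 T cell-like cells, which held 5, 11, 0, 3 and 1 UMIs of Trac and 4, 0, 2, 26 and 2 UMIs of Trbc2.

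T cell genes were scarce outside these cells. At least 3 UMIs in all of Cd3e, Cd3d, Cd3g, Trac and Trbc2 were found in 6 of 58 immune cells, 2 of 520 other tissue cells and 0 of 1457 organoid cells. These genes were picked after their values were seen.

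Ighm, the constant region of the immunoglobulin M heavy chain and a gene of B cells, was also found outside the B cell-like cells. A UMI of Ighm was present in 36 of 58 immune cells, among them 16 of 20 and 11 of 15 macrophage-like cells, with medians of 2.41 (0 to 8.32) and 2.96 (0 to 5.84) per 10000. Of these 27 macrophage-like cells, 25 held no UMI of Cd79a or Cd79b. Among other tissue cells 7 of 520 held a UMI of Ighm, including 0 of 123 and 0 of 118 endothelial cells. After thinning to 1000 UMIs Ighm was found in 5 of 20 and 5 of 15 macrophage-like cells and in 0 of 123 and 0 of 118 endothelial cells. Median depth was 7451.5 and 5515 UMIs in the macrophage-like cells and 3526 and 3704 UMIs in the endothelial cells. This gene was singled out after its values were seen.

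**Figure D2:**
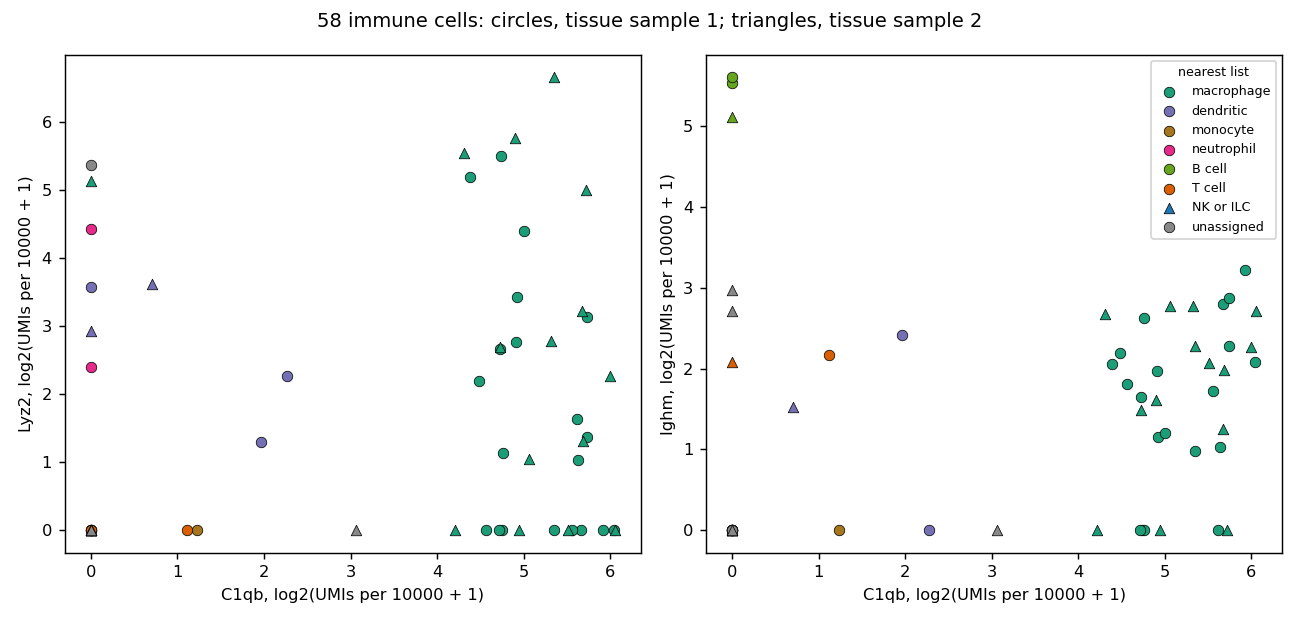
Lyz2 (left) and Ighm (right) against C1qb in each of the 58 immune cells, all as log2 of UMIs per 10000 plus 1, with colours for the nearest marker list, circles for tissue sample 1 and triangles for tissue sample 2. Ighm is at its highest in the 3 B cell-like cells, which lack C1qb, and lower but present in 27 of 35 macrophage-like cells, while Lyz2 spans from 0 to the highest cell within the macrophage-like group.

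The next question was which genes set the immune cells apart from the rest of the gland. Mean UMIs per 10000 over the immune cells of a sample were divided by the mean over its other tissue cells, with 1 added to each, and the 4608 genes for which the average of the immune and the other mean was at least 0.5 were kept. At least 4-fold higher in both samples were 37 genes (0.803% of those tested) and at least 4-fold lower were 36 (0.781%). At least 2-fold higher in both were 263 genes (5.71%) and lower 204 (4.43%), and the median log2 fold over all tested genes was 0.0175 in tissue sample 1 and -0.000973 in tissue sample 2. With tissue sample 1 alone 59 genes were 4-fold higher, and with tissue sample 2 alone 46. Because the immune cells were picked on their expression, nothing is read from these counts, and all counts over gene lists below use the 2-fold call beside its share of 5.71% higher and 4.43% lower. Those shares are of genes that passed this filter. List counts are of measured members, and a member under the filter could not be called. A gene that averaged under 1 per 10000 in the other tissue cells of a sample could not be called lower, with 1 added to each mean. For such a gene the direction of a call was fixed. The lists were chosen with earlier results of these data known.

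**Figure D3:**
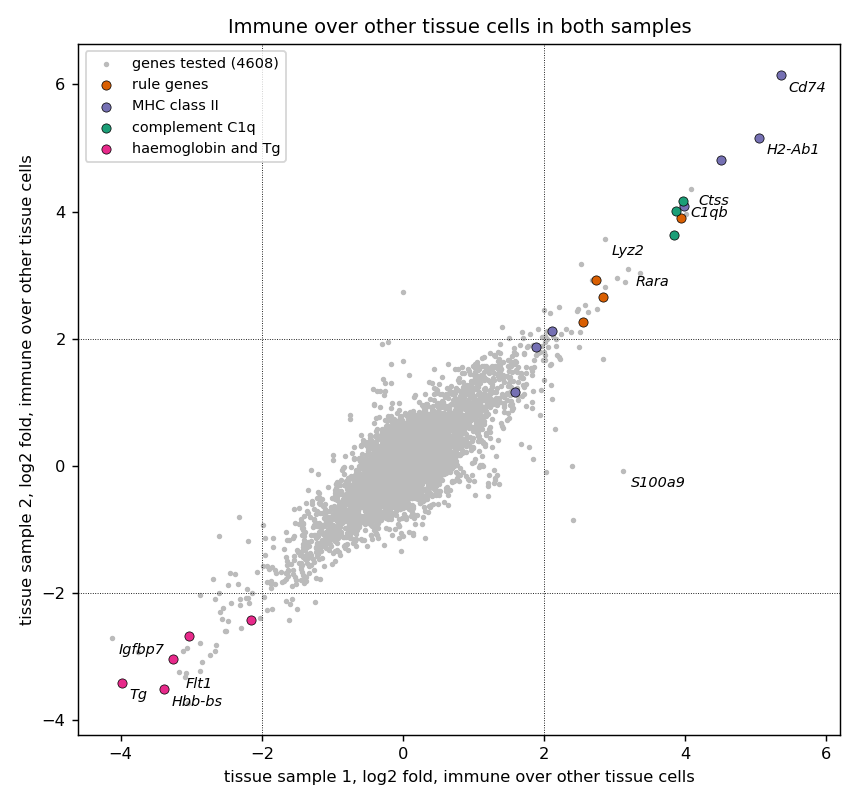
Log2 fold of immune over other tissue cells (means per 10000 plus 1) in tissue sample 1 (horizontal axis) and tissue sample 2 (vertical axis) for the 4608 genes tested, with dotted lines at 4-fold. Cd74, H2-Ab1 and the C1q genes lie at the upper right in both samples, Tg and the haemoglobins at the lower left, and S100a9 is high in tissue sample 1 only (3.12 against -0.08). The limit on Tg in the rule fixed the side on which Tg lies, and the haemoglobins were not lower against mural cells alone.

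MHC class II genes were higher throughout, with 7 of 7 measured members at least 2-fold higher and 5 of 7 at least 4-fold higher in both samples (median log2 fold of all 7 members 4.04). H2-Aa, the alpha chain of the I-A molecule, averaged 113 and 95.2 per 10000 in immune cells against 3.997 and 2.42 in other tissue cells, log2 folds of 4.51 and 4.82. H2-Ab1, its beta chain, averaged 94.7 and 90.4 against 1.89 and 1.56. H2-Eb1, the beta chain of I-E, averaged 85.1 and 74.0 against 4.43 and 3.42. H2-DMa and H2-DMb1, which exchange the peptide held by class II molecules, were at 3.15 to 3.93 in the immune cells of both samples. Ciita, the master regulator of these genes, averaged 2.40 and 1.33 against 0.135 and 0.0483. All of H2-Aa, H2-Ab1, H2-Eb1 and Cd74 were found in 45 of 58 immune cells. Class II was not limited to macrophage-like cells, for the 23 others averaged 57.2 and 24.5 per 10000 of H2-Aa in the 2 samples, with a range of 0 to 200.

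Low counts of class II genes were present in other tissue cells too. Cd74 was found in 35 of 53 and 18 of 42 Tg-rich follicular-type cells, at means of 9.17 and 3.70 per 10000, and in 39 of 123 and 26 of 118 endothelial cells, at means of 1.23 and 0.781. At 1000 UMIs per cell the shares with Cd74 were 50.9% and 26.2% of the follicular-type cells, 11.4% and 4.24% of the endothelial cells and 84.4% and 73.1% of the immune cells. Other class II genes gave other gaps. H2-Aa was then in 35.8% and 23.8% of the follicular-type and 35.8% and 11.9% of the endothelial cells. H2-Ab1 was in 22.6% and 16.7% against 8.94% and 12.7%, and H2-Eb1 in 50.9% and 33.3% against 35.0% and 22.0%. Median depth was 2233 and 2102 UMIs in the follicular-type cells and 6613 and 5460.5 in the immune cells. In the organoid samples Cd74 averaged at most 0.0733 per 10000.

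The class II genes lie on chromosome 17 (GRCm38), H2-Ab1 at 34257689 to 34269419, H2-Aa at 34282744 to 34287823 and H2-Eb1 at 34305867 to 34316674. Class II promoters are known for a conserved module that includes a Y box, an inverted CCAAT sequence. The windows of H2-Aa (chr17:34287774-34288073, minus strand) and H2-Eb1 (chr17:34305617-34305916, plus strand) are shown for this reason, with the motif CTGATTGG in capitals, again from RefSeq on GRCm38.p6 and 5′ to 3′.
H2-Aa: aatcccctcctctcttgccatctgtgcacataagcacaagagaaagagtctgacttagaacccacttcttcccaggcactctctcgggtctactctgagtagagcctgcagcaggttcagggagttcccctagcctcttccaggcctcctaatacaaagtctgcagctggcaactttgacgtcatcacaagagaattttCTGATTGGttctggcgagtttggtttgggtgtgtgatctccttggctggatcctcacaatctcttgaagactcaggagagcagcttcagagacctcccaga
H2-Eb1: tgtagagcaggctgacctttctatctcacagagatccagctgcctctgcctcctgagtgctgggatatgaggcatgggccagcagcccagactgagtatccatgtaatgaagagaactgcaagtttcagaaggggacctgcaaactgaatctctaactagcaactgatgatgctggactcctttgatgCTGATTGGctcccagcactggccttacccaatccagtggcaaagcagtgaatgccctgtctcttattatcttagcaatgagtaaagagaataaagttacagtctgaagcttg
It began 51 bases before the RefSeq start of H2-Aa and 62 bases before that of H2-Eb1. Of 5 class II promoter windows of 4 matched genes, 2 held it, against 4.10% of all 32851 windows on either strand. The motif was chosen after these windows had been read.

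None of the 8 members of the class I and antigen processing list was 2-fold apart in both samples. B2m, the light chain of class I, had medians of 29.1 and 28.9 per 10000 in immune cells and 23.2 and 29.1 in endothelial cells, with ranges that overlapped, while its means in follicular-type cells were 6.23 and 5.24. H2-K1 and H2-D1, heavy chains that resemble each other in sequence, averaged 12.2 to 16.9 in the immune cells. Tap2, a peptide transporter, differed in direction, with log2 folds of 0.10 and -0.51.

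**Figure D4:**
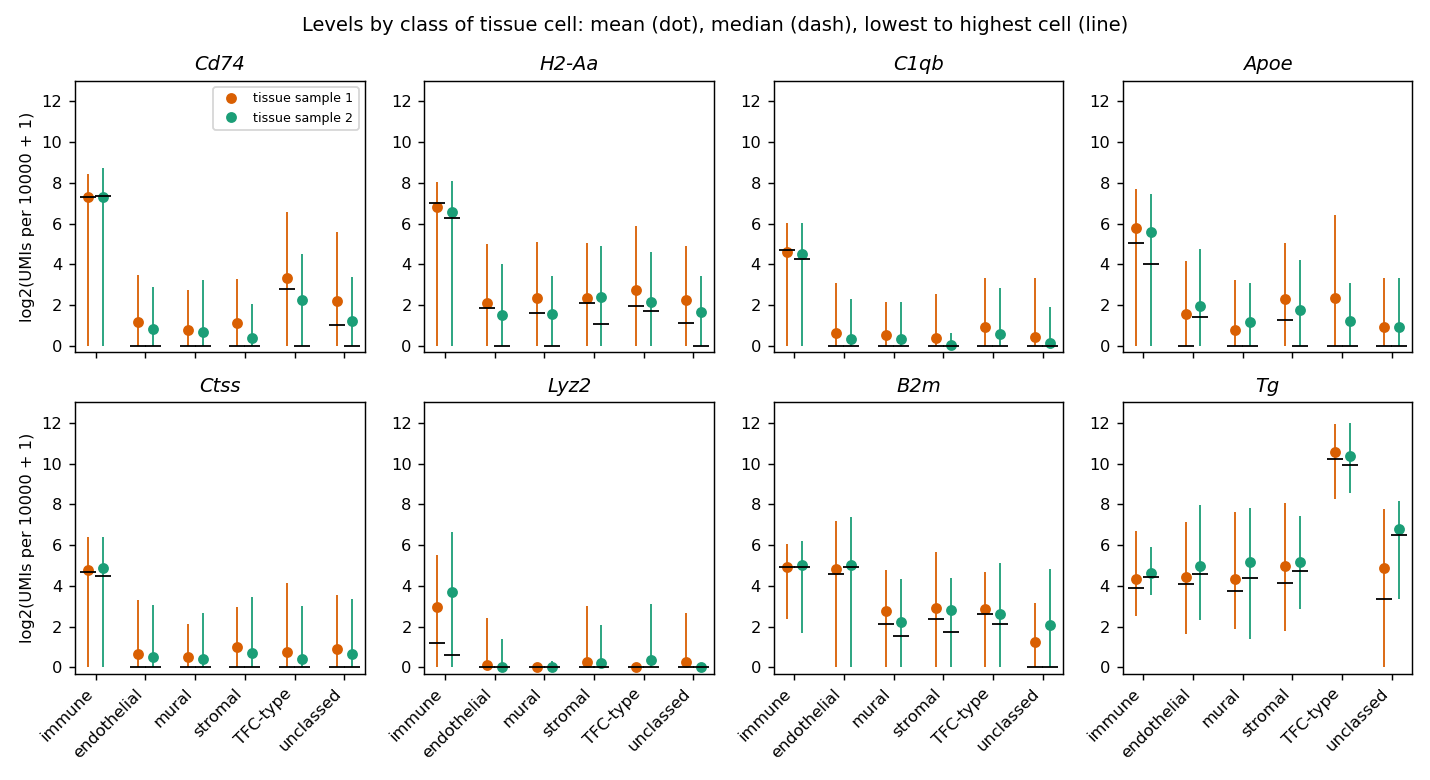
Levels of 8 genes (log2 of UMIs per 10000 plus 1) in 6 classes of tissue cell, with the mean (dot), median (dash) and the lowest to highest cell (line) of tissue sample 1 (orange) and tissue sample 2 (green). Cd74, H2-Aa, C1qb, Apoe, Ctss and Lyz2 have their highest means in immune cells, B2m overlaps between immune and endothelial cells, and Tg in immune cells (medians 14.0 and 20.7) is near that in endothelial cells (15.8 and 23.2).

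Many lysosomal genes were higher. Of 14 measured members, 9 were at least 2-fold higher, 1 was lower and 13 passed the filter (median log2 fold of all 14 members 1.73). Ctss, the cathepsin that trims the invariant chain, averaged 26.9 and 28.3 per 10000 against 0.647 and 0.426. Psap, a precursor of lipid-binding lysosomal proteins, averaged 15.1 and 16.1 against 3.17 and 3.97. Ctsb averaged 13.04 and 12.0 against 3.69 and 3.12. Ctsl was lower, at 0.246 and 0.402 in immune cells against 2.35 and 2.56 in other cells, and follicular-type cells averaged 5.27 and 6.32 of it. Cd63 had log2 folds of 0.01 and -0.38, and Lamp1, a lysosomal membrane protein, -0.08 and -0.13. Ctsd is listed at 0 in the immune cells and at 0.00271 and 0.00459 in the other cells, although it is widely expressed, and no level is read from it.

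Some receptors for antibodies and for cytokines were higher as well. In the list of Fc receptors and their signalling partners 5 of 8 measured members passed the filter, and all 5 were at least 2-fold higher. None could be called lower, since the members averaged at most 0.305 per 10000 in other tissue cells (Syk, tissue sample 2). The direction of these calls was thus fixed. Tyrobp and Fcer1g are 2 of these 5 and belong to the rule, so their calls say nothing. Outside the rule were Fcgr3, Fcgr4 and Syk. Fcgr3, a low-affinity receptor for immunoglobulin G, was at 4.11 and 3.61 per 10000 against 0.0794 and 0.0964. Fcgr4 was at 1.34 and 1.40 against 0.120 and 0.101, and Syk at 1.69 and 2.11 against 0.285 and 0.305. Trem2, a lipid-sensing receptor of some macrophages, was at 0.324 and 0.111. Of 12 chemokine and cytokine receptors, 9 passed the filter and 6 were at least 2-fold higher. Cx3cr1, the fractalkine receptor of resident macrophages, averaged 4.43 and 2.53 against 0.353 and 0.383, and Csf2ra, a chain of the receptor for GM-CSF, 3.89 and 2.90 against 0.0898 and 0.0604. Of 12 scavenger and phagocytic receptors 6 passed the filter and 2 were higher. These were Axl, a receptor tyrosine kinase for the uptake of dying cells, at 5.21 and 2.87 against 0.898 and 0.643, and Clec7a, the β-glucan receptor, at 3.44 and 1.15 against 0.0323 and 0.0371. Msr1, Cd36 and Mertk differed in direction between the samples, with log2 folds of -0.15 and 0.20, 0.50 and -0.26, and 0.19 and -0.15.

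Secreted factors came next. Of 10 measured chemokines 6 passed the filter and 4 were at least 2-fold higher in both samples. None could be called lower, since all 10 together summed to 0.474 and 0.242 per 10000 in the other tissue cells. Cxcl16, the ligand of CXCR6, averaged 3.40 and 3.84 per 10000 against 0.0726 and 0.117. Ccl3, Ccl6 and Ccl9, which attract myeloid cells, averaged 1.26 to 2.72 in the immune cells. Ccl4 was at 3.62 and 0.506, and Cxcl2, which draws neutrophils, was at 2.69 and 0.0738, so both were higher in tissue sample 1. Ccl2 differed in direction with log2 folds of -0.18 and 0.12. Of 9 cytokines 2 passed the filter and 1 was at least 2-fold higher, Il1b, at 6.63 and 2.20 against 0.0711 and 0. Il1b had UMIs in 9 of 32 and 5 of 26 immune cells. In tissue sample 1 the 2 neutrophil-like cells held 25 and 34 UMIs of it, and no other cell held more than 25. In tissue sample 2 a macrophage-like cell held 44, and the other cells at most 5. Il10 was at 0.174 and 0.515 against 0.216 and 0.420, with log2 folds of -0.05 and 0.09. Neither Il6 nor Csf1 had a UMI in any immune cell.

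Ligands that could act on the neighbouring epithelium and vessels were low. Of 9 growth factor ligands 4 passed the filter, none was at least 2-fold higher and 1 was lower. This was Gas6, the ligand of Axl, at 0.341 and 0.0961 per 10000 against 1.93 and 1.501. Pdgfb averaged 1.96 and 1.21 against 1.56 and 1.54, with log2 folds of 0.21 and -0.20, and Tgfb1 1.35 and 1.23 against 0.538 and 0.654. Igf1 averaged 0.143 and 0.785 against 0.595 and 0.867.

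Of 11 measured transcription factors of the myeloid and lymphoid lineages 8 passed the filter and 4 were at least 2-fold higher. Among them were Spi1, Runx1 at 3.48 and 2.41 per 10000 against 0.399 and 0.244, and Ikzf1 at 1.86 and 2.77 against 0.162 and 0.145. Runx1 and Ikzf1 work in blood cell formation. Of 7 measured members of the pattern recognition list 4 passed the filter and 1 was higher. This was Cd14, the lipopolysaccharide co-receptor, at 3.40 and 3.30 against 0.0664 and 0.0787. Of 9 interferon response genes 5 passed the filter, and none of these was 2-fold apart. Ifit1, Ifit2 and Ifit3 differed in direction between the samples with log2 folds from -0.29 to 0.31.

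Cytoskeletal genes of motile leukocytes stood out, with 7 of 8 measured members at least 2-fold higher (median log2 fold of all 8 members 1.57). Actb, the cytoplasmic actin, averaged 51.7 and 55.9 per 10000 against 19.1 and 18.8, and Tmsb4x, which binds actin monomers, 41.1 and 41.9 against 8.68 and 9.46. Coro1a, the coronin of leukocytes, averaged 6.51 and 5.99 against 0.0264 and 0.000301. Vim, an intermediate filament, differed in direction with log2 folds of -0.15 and 0.98. Iron storage was also higher. Fth1, the ferritin heavy chain, averaged 24.3 and 24.5 against 5.45 and 5.31 and was also high in follicular-type cells, at 15.1 and 13.8, and Ftl1, the light chain, averaged 5.08 and 4.89 against 1.00 and 0.903. These were 2 of 7 members of the iron list, of which 3 passed the filter. In the lipid list 6 of 8 members passed the filter. Of these 1 was higher, Apoe at 53.4 and 47.3 against 2.38 and 2.09. Lower was 1, Fabp4, the fatty acid binding protein of capillaries, at 0.352 and 0.138 against 3.25 and 4.002. Gpnmb differed in direction, at 0.158 and 0.0697 against 0.239 and 0.0675.

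Outside these lists, the 15 genes ranked highest by their smaller fold of the 2 samples were Rara, Cybb, Mpeg1, Helb, Cd52, Tgfbr1, Cd53, Cst3, Ptpn6, Arhgap45, Lsp1, Dock2, Man2b1, Sirpa and Pld4. Rara, which codes for retinoic acid receptor alpha, headed them with medians of 11.5 (0 to 32.0) and 8.65 (0 to 25.1) per 10000. Its means were 13.1 and 9.78 against 0.539 and 0.267 in other tissue cells, and 29 of 32 and 18 of 26 immune cells held a UMI. Cybb, the catalytic subunit of the phagocyte NADPH oxidase, averaged 10.2 and 8.29 against 0.0952 and 0.134. Helb, a DNA helicase, averaged 5.98 and 5.56 against 0.172 and 0.134. Cst3, a secreted cathepsin inhibitor, averaged 49.0 and 44.2 against 8.02 and 7.39. Tgfbr1, a receptor of TGF-β, averaged 8.42 and 6.57 against 0.405 and 0.366, and Sirpa, which reads the CD47 signal on other cells, 3.43 and 3.08 against 0.0879 and 0.0106. In GENCODE M21 a gene on the other strand overlaps H2-Eb1, Helb (Grip1), Cd52 (Crybg2), Ptpn6, Lsp1 and Dock2, and a short gene on the same strand overlaps Rara. Overlaps also touch other genes named here, among them Ptprc, Tg, Csf1r, B2m, Ctsb, Ctss, Coro1a, Il1b, Ciita, H2-DMa and Cx3cr1, which has 6 overlapping genes on the other strand and 3 on its own. Whether counting used the strand is not given in the sources used here, so reads of overlapping genes may be shared. The promoter core AGGAAGT was found in 5 of 18 windows of the 12 matched genes of this group (Cd53, Dock2, Pld4, Ptpn6 and Rara), against 9.35% of all 32851 windows. The core was chosen after the C1q windows had been read, and binding was not tested.

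The 10 genes outside the lists with the most negative folds were also ranked. They were Flt1, Timp3, Plpp3, Col4a1, Sparc, Podxl, Igfbp3, Ly6c1, Igfbp7 and Plpp1, of which Flt1, a VEGF receptor, averaged 1.37 and 1.26 per 10000 in immune cells against 20.4 and 20.5. Against mural cells alone Ly6c1, a gene of capillaries, was not lower (log2 fold 0.00194).

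Genes of other cell types were also counted in the immune cells. Tg was found in 58 of 58 immune cells, at medians of 14.0 (4.66 to 101) and 20.7 (10.8 to 58.8) per 10000, against 15.8 and 23.2 in endothelial cells and 1190 and 972 in follicular-type cells. Of the 13 genes of the follicular cell list, Slc5a5 and Dio1 were at 0 in every immune cell. The summed haemoglobin and Alas2 level was 5.11 (0 to 12.9) in the immune cells of tissue sample 1, with a UMI in 31 of 32, and 0 (0 to 3.81) in tissue sample 2, with a UMI in 9 of 26. Endothelial cells had medians of 4.16 and 0 of the same list. Its means were 752 and 273 per 10000 in the unclassed tissue cells. They were 5.90 and 0.723 in immune cells and 6.03 and 1.42 in endothelial cells. The 6 endothelial markers of the rule summed to medians of 1.03 (0 to 8.95) and 0.585 (0 to 14.7) in immune cells, against 73.7 and 78.9 in endothelial cells. Egfl7 and Cldn5 were at 0 in all immune cells but also averaged at most 0.115 in the other tissue cells, so nothing is read from them. The 3 stromal markers summed to medians of 1.11 (0 to 6.40) and 0 (0 to 1.85), and the 5 mural markers to 0 in both samples (up to 3.83 and 13.7). In 11 immune cells the mean of 1 of these 3 sets reached 0.5 while staying under the immune mean. Without them 47 immune cells remained, and 37 genes were again at least 4-fold higher in both samples, 34 of them shared. The part of these markers in the other values was not tested.

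Several genes differed between the immune cells of the 2 samples. Of the immediate early and dissociation stress list 13 of 14 members passed the filter and 3 were at least 2-fold higher in both samples. These were Hspa1b at 4.57 and 4.18 per 10000, Hspa1a at 3.93 and 3.62, which are near-identical copies, and Zfp36 at 4.26 and 3.01. Fosb was at 2.99 in tissue sample 1 and 0.429 in tissue sample 2, against 0.556 and 0.751 in other tissue cells. Jun, Dusp1 and Nr4a1 likewise differed in direction, with log2 folds of 0.30 and -0.64, 0.92 and -0.32, and 0.20 and -0.78. S100a8 and S100a9 had means of 4.36 and 8.33 in tissue sample 1 and 0 in tissue sample 2, where no cell was neutrophil-like. Hdc, which makes histamine, was at 3.45 with UMIs in 3 of 32 cells, and at 0 in tissue sample 2. With 2 samples no test of these differences was made.

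Genes of division were low in immune and in other tissue cells. Mki67 or Top2a had a UMI in 3 of 58 immune cells. The 11 cell cycle genes summed to 1.16 and 2.66 per 10000 in immune cells, against 1.12 and 0.920 in other tissue cells. None of the 11 was high enough to pass the filter, so none could be called. Of 9 measured thyroid hormone genes 4 passed the filter and 2 were lower. Among these 2 is Tg, whose call was fixed by the limit on Tg in the rule. Thra, a thyroid hormone receptor, was at 0.133 and 0.0308 per 10000, and Dio2, which activates the hormone, at 0.0303 and 0. Of 8 mitochondrially encoded genes 5 passed the filter and 1 was at least 2-fold lower in both samples, mt-Nd2 at 12.5 and 12.3 against 26.6 and 25.6. The median log2 fold was -0.78 over the 8 and -0.986 over the 5. Against endothelial cells alone mt-Nd2 was higher (log2 fold 0.463). The genes mt-Co2, mt-Co3 and mt-Atp6 are listed at 0 in the immune cells, and no level is read from them.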

How the data were processed

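The authors deposited 1 table of 30879 genes and 2590 cells, whose values are the natural log of 1 plus UMIs per 10000 UMIs of the cell. The submitters' processing notes name Trim Galore 0.4.3, STAR 2.5.3a, Seurat and the builds GRCm38 and mm10. The counting step and the filter on cells are not given in the sources used here. The log was undone and each cell divided by its smallest non-zero value, which gave whole UMIs for 100% of 6920804 values within 0.01. Doublets were not called. Columns were assigned to samples by their names.

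Cells of at least 1000 UMIs entered. Other tissue cells were follicular-type with Tg of 300 or more, endothelial, mural or stromal by the highest rule mean of 0.5 or more, and unclassed otherwise. Folds were log2 of (mean UMIs per 10000 + 1) within each tissue sample, for genes for which the average of both group means was 0.5 or more, and carried no test. The planned exact permutation test of the shares was run, but nothing is read from it, since the shares are made of the rule's values. Named genes were the rule genes and markers, in each list the 2 to 4 members of highest mean and those that differed in direction, and the 15 highest and 10 lowest other genes. Members and lists were chosen with earlier results of these data known. The fold calls were tested on simulated data. Python 3.11.15, numpy 2.4.6, pandas 2.3.3 and scipy 1.17.1 were used, with coordinates from GENCODE M21 and promoters from RefSeq (GRCm38.p6). Promoters of C1qa and H2-Ab1 were not analysed here. A few list members are not reported here.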

Additional observations from a re-analysis of the deposited data

Results flagged for a closer look

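Among the cells left out for depth, 6 of 169 tissue cells with fewer than 1000 UMIs also passed the immune rule (3 of 78 and 3 of 91), against 1 of 386 organoid cells. They are singled out because they lie outside the cells that were analysed. Their shares were 3.85% (exact Clopper-Pearson 95% interval 0.800 to 10.8%) and 3.30% (0.685 to 9.33%), and none of the 6 held more than 1 UMI of the 4 rule genes.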

How the results depend on the processing

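The difference in immune shares was 8.17 to 12.2 percentage points under 9 changes of rule or depth. Organoid cells that passed numbered 10 at 1000 UMIs per cell and 4 with Ptprc and Laptm5 alone. They numbered 3 with an immune mean of 0.3 or more and 1 with no minimum of UMIs. Leaving out a sample gave 9.52 to 10.5 percentage points. The planned exact permutation test of these shares uses the rule's own values, and its p sat at the smallest the splits allow, so neither its size nor its constancy says anything about stability. It was planned as two-sided with a smallest p of 1 in 21. The doubled smaller tail was computed first and gave an exact p of 0.0952 for 10.0 points, and the absolute difference, which gives 0.0476, replaced it after that value was seen. The smallest exact p is 0.167 without a tissue sample and 0.0667 without an organoid sample. The macrophage-like share, 60.1% as the mean of both samples, was 54.4% with no minimum of UMIs, 67.1% with an immune mean of 1 or more, 63.9% without the cells that also reached 0.5 for another class, and 57.7 to 62.5% without 1 tissue sample. The 4-fold counts of 37 and 36 depended most on the pseudocount and the fold: with 0.1 added they were 227 and 199, at 2-fold 263 and 204, and at 8-fold 12 and 7. Against endothelial cells alone 77 genes were lower, and with the macrophage-like cells alone, chosen after seeing the data, 58 were higher. Without 1 tissue sample they were 46 to 59 higher and 45 to 47 lower. Of 111 named genes under 15 settings, 12 of 1665 values turned from lower to higher, all against 1 class of cell: Hbb-bt (0.0291) and mt-Nd2 (0.463) against endothelial cells, Ly6c1 (0.00194), Plvap (0.0597), Hba-a1 (0.291), Hba-a2 (0.273), Hbb-bs (0.453), Hbb-bt (0.256) and Gas6 (0.202) against mural cells, and Notch3 (0.0239), Hba-a1 (0.0587) and Gas6 (0.104) against follicular-type cells. The cause was not tested. No paired analysis was possible because the replicate numbers only name samples and the tissue and organoid groups share no label that ties them. Depth limits genes under about 1 UMI per cell, and 2 tissue samples allow no test between them.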
